A study of Oryza sativa with 45 samples.

Results

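Carotenoid synthesis genes were followed in rice seedlings that germinated and grew underwater for 14 d. The set held 9 genes of the 35677 in the count table. They were taken by their identifiers and not by their values, but earlier results of these data were known when the set was chosen. They were the 3 phytoene synthase genes PSY1 (OS06G0729000), PSY2 (OS12G0626400) and PSY3 (OS09G0555500), the desaturase genes PDS (OS03G0184000) and ZDS (OS07G0204900), the isomerase gene CRTISO (OS11G0572700), the cyclase genes LCYB (OS02G0190600) and LCYE (OS01G0581300) and the epoxidase gene ZEP (OS04G0448900). All 9 passed the filter on low counts that left 26180 genes to be tested.

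The 45 libraries came from 4 near-isogenic genotypes of the indica cultivar IR64, harvested 2, 4, 8 and 14 d after dry seeding in soil under water. IR64 lacks the interval that holds TPP7, a trehalose-6-phosphate phosphatase gene. IR64(AG1) carried the AG1 locus with TPP7 from the landrace Khao Hlan On, IR64(SUB1) carried SUB1A-1 of the landrace FR13A, an ethylene-responsive factor gene of the SUB1 locus, and IR64(AG1,SUB1) carried both. According to the study, IR64 and IR64(AG1) hold the allele SUB1A-2 instead, which gives lower transcript levels. Each library was made from the pooled embryo, coleoptile and shoot tissue of many seedlings, labelled embryo at 2 d and coleoptile on the later days. Each group had 3 biological replicates, except for 3 groups with 2: IR64(SUB1) on day 8 and IR64(AG1,SUB1) on days 2 and 4. All groups compared here grew under water. Where 4 values are set side by side, they follow the order IR64, then IR64(AG1), then IR64(SUB1), then IR64(AG1,SUB1), which is called the order of genotypes.

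Carotenoids are made in plastids from geranylgeranyl diphosphate. Phytoene synthase joins a pair of these molecules to phytoene, which is the first committed step and is often the limiting one, and the desaturases and isomerases then turn phytoene into red lycopene. The cyclases split the pathway at lycopene, LCYB leading to beta-carotene and, together with LCYE, to alpha-carotene and lutein. ZEP makes violaxanthin from zeaxanthin, and violaxanthin and neoxanthin are in turn the source of abscisic acid. In green tissue carotenoids gather light and protect chlorophyll from it, while in germinating seeds and etiolated shoots the pathway runs at a low rate.

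Total counts ranged from 12256409 to 24870831 per library, with a median of 20459708, and 21560 to 27539 genes had a count. SUB1A had 952 to 1678 counts at 8 d in the lines with SUB1A-1 and 5 to 45 in the lines with SUB1A-2, whereas at 2 d and 4 d no library of any line had more than 2. At 14 d it had 2527 to 4761 counts in the lines with SUB1A-1 and 261 to 626 in the lines with SUB1A-2. The summed level of 20 genes entered as green tissue markers was 9.14 to 14.9 CPM (counts scaled to library size with TMM factors) at 2 d, 7.84 to 32.9 CPM at 4 d, 3264 to 12399 CPM at 8 d and 11835 to 30237 CPM at 14 d. No marker of that list was at 0 throughout at 2, 8 or 14 d, and 1 was at 4 d. Endosperm markers fell over the same days, from 538 to 1565 CPM at 2 d to 7.67 to 27.1 CPM at 14 d. The part of these changes in tissue in the results for the 9 genes was not tested.

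All 9 genes reached their highest mean level at 14 d, but they started from different states. LCYE had no count before 8 d apart from a single one, the phytoene synthase genes were close to the limit of detection at 2 d and 4 d, and PDS, ZDS, CRTISO, LCYB and ZEP were present from 2 d on. A gene was called as risen or fallen when its Benjamini-Hochberg adjusted p-value in edgeR's quasi-likelihood test was below 0.05 and its log2 fold change was above 1 or below -1. Averaged over the 4 genotypes, 7 of the 9 genes rose from 4 to 8 d, where 27.2% of all genes tested rose, and 6 rose from 8 to 14 d, where 16.2% did. From 2 to 4 d PSY3 rose and PSY2 fell, against 9.03% and 5.05% of all genes, so 1 rise and 1 fall in 9 genes lay near those shares. The averaged changes were not repeated under the alternative settings given below. Lower RNA per cell and fewer cells that express a gene cannot be told apart in these bulk libraries.

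**Figure D1:**
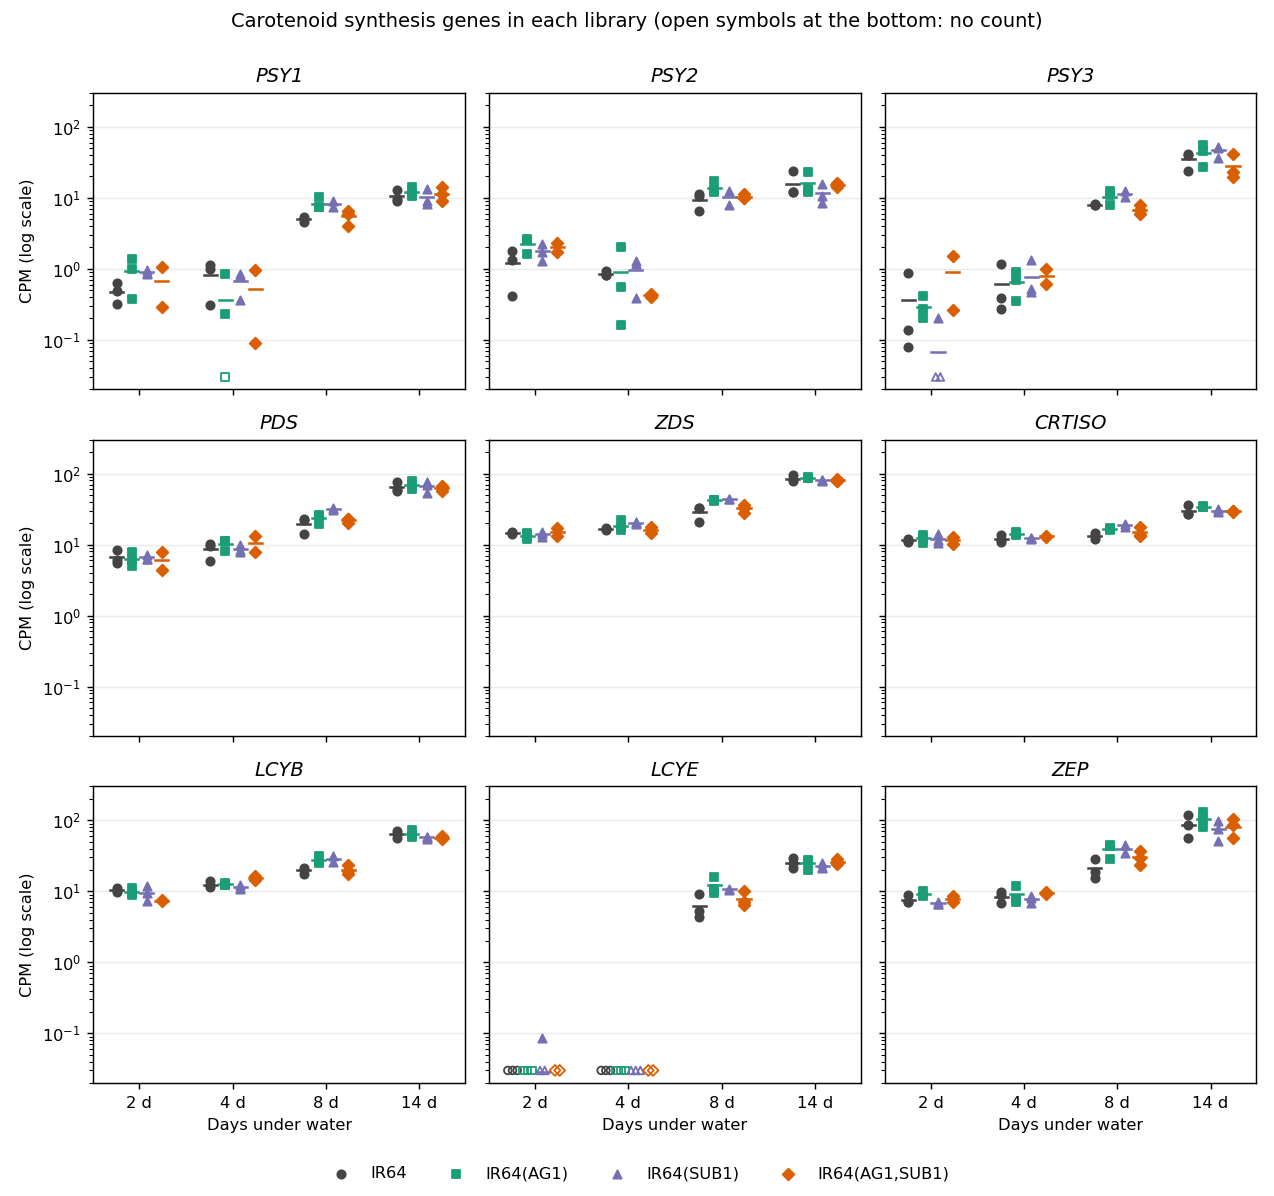
Level of the 9 genes in each library (CPM on a log axis) by days under water. Filled symbols are libraries, short lines are group means, and open symbols at the bottom are libraries with no count of the gene; LCYE is open in 10 of 11 libraries at 2 d and in 11 of 11 at 4 d, and all 9 genes are highest at 14 d.

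The phytoene synthase genes made the largest relative gains from 4 to 8 d of the genes that were counted from 2 d on, with ratios of day means of 11.1 for PSY1, 13.6 for PSY2 and 12.8 for PSY3 against at most 3.69 for the others. Over all genotypes PSY1 had 0 to 1.39 CPM at 2 d and 4 d, 4.03 to 10.2 CPM at 8 d and 8.32 to 14.2 CPM at 14 d. From 4 to 8 d it rose by 3.45 on the log2 scale (SE 0.25, adjusted p = 2.59e-15), and its 8 d libraries lay above its 4 d libraries in each of the 4 genotypes. The averaged change from 8 to 14 d was 0.74 (SE 0.18, adjusted p = 5.94e-04), short of the fold threshold, although PSY1 rose in IR64 and in IR64(AG1,SUB1), by 1.06 in each. These 2 calls were lost without single libraries, at 0.99 without IR64 8 d replicate 3 and 0.89 without IR64 14 d replicate 1, and at 0.89 without IR64(AG1,SUB1) 8 d replicate 1 and 0.88 without IR64(AG1,SUB1) 14 d replicate 1. The first was also lost with 5 counts added and a likelihood ratio test (0.998), and the second with replicates 2 and 3 alone at 8 d (0.855).

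PSY2 was the only one of the 9 genes that fell between days. In IR64(AG1,SUB1) it had 2.28 and 1.73 CPM at 2 d (26 and 24 counts) and 0.445 and 0.405 CPM at 4 d (5 and 8 counts). The 2 d libraries were thus both above the 4 d libraries, and the fall was -2.23 (SE 0.72, adjusted p = 0.0210). This call was lost without 3 of the 4 libraries taken one at a time, with adjusted p = 0.0927 without the 2 d replicate 2, 0.0698 without the 4 d replicate 1 and 0.146 without the 4 d replicate 2. It was lost also when only the 2 groups entered the fit (adjusted p = 0.124). In IR64(AG1) the 2 d values were 2.60, 2.54 and 1.60 CPM and the 4 d values 2.01, 0.560 and 0.161 CPM, and these groups overlapped. PSY2 was called there without the 2 d replicate 3 (-1.49) or the 4 d replicate 1 (-2.71), and PSY1 without the 4 d replicate 3 (-2.76). Averaged over the 4 genotypes PSY2 fell by 1.22 (SE 0.29, adjusted p = 5.66e-04).

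After 4 d the direction of PSY2 changed. At 8 d it had 10.5, 11.3 and 6.47 CPM in IR64, 12.9, 11.9 and 17.1 CPM in IR64(AG1), 12.5 and 7.99 CPM in IR64(SUB1) and 9.93, 11.3 and 10.1 CPM in IR64(AG1,SUB1). It rose from 4 to 8 d in each genotype, by 3.85 on average (SE 0.25, adjusted p = 9.93e-17). Between 8 and 14 d it was not called in any genotype, with log2 changes of 0.19 to 0.74, and its 14 d range of 8.39 to 23.5 CPM overlapped the 8 d range of 6.47 to 17.1 CPM.

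PSY3 had the widest course of the genes counted from 2 d on, with a mean at 14 d of 106 times the mean at 2 d, and its start rests on few counts. At 2 d it had 16, 1 and 2 counts in IR64, 5, 5 and 3 in IR64(AG1), 0, 0 and 3 in IR64(SUB1) and 3 and 21 in IR64(AG1,SUB1). At 4 d every library held 5 to 17 counts. The 2 d libraries therefore differed widely within IR64 and IR64(AG1,SUB1), and those of IR64(SUB1) were all low. In IR64(SUB1) PSY3 rose from 2 to 4 d by 3.36 (SE 1.04, adjusted p = 0.0119), which rests on 32 counts against 3 and a ratio of levels of 10.9 with an exact 95% interval of 3.42 to 55.8 for counting error only. This call was lost without the 2 d replicate 1 (adjusted p = 0.0864) or the 4 d replicate 2 (adjusted p = 0.0696).

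At 8 d PSY3 was at 7.86, 8.29 and 7.90 CPM in IR64, 7.84, 10.8 and 12.3 CPM in IR64(AG1), 10.4 and 12.3 CPM in IR64(SUB1) and 6.65, 5.83 and 7.92 CPM in IR64(AG1,SUB1). At 14 d it was at 39.5, 41.5 and 23.6 CPM, 45.1, 55.4 and 27.1 CPM, 50.5, 52.5 and 36.6 CPM, and 41.7, 23.0 and 19.7 CPM in the order of genotypes. The lowest 14 d library of any genotype was above the highest 8 d library of any genotype. PSY3 was the only phytoene synthase gene that rose from 8 to 14 d in all 4 genotypes, by 2.12 in IR64 (SE 0.33, adjusted p = 9.96e-07) and by 2.04, 2.03 and 2.05 in the lines that follow in the order of genotypes. In cereals this copy is known for its response to drought, salt and abscisic acid, mostly in roots, whereas PSY1 and PSY2 are known from leaves.

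The share of each copy in the summed phytoene synthase counts of a library changed between 8 and 14 d. Both the shares and the size of their changes depend on the lengths of the 3 transcripts, which were not corrected for. The ratios of the 14 d mean to the 8 d mean, in which length cancels, were 1.67 for PSY1, 1.33 for PSY2 and 4.26 for PSY3. The PSY3 share was 24.6% to 44.4% at 8 d (median 33.0%, 11 libraries) and 45.8% to 72.0% at 14 d (median 56.3%, 12 libraries), without overlap. On these counts the PSY2 share went from a median of 44.1% at 8 d to 23.3% at 14 d, and that of PSY1 from 24.5% to 17.1%. IR64(SUB1) had the highest mean PSY3 share at 14 d, 68.3% ± 3.9 (SD, n = 3), and IR64(AG1,SUB1) the lowest, 49.9% ± 6.9 (SD, n = 3). The summed counts were only 17 to 60 per library at 2 d and 13 to 51 at 4 d, against 409 to 953 at 8 d and 1087 to 2068 at 14 d, and the shares of the early days scattered widely. The differences in share between genotypes were not tested. The 3 genes are similar in sequence, and how reads that match several of them were counted is not given in the sources used here.

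**Figure D2:**
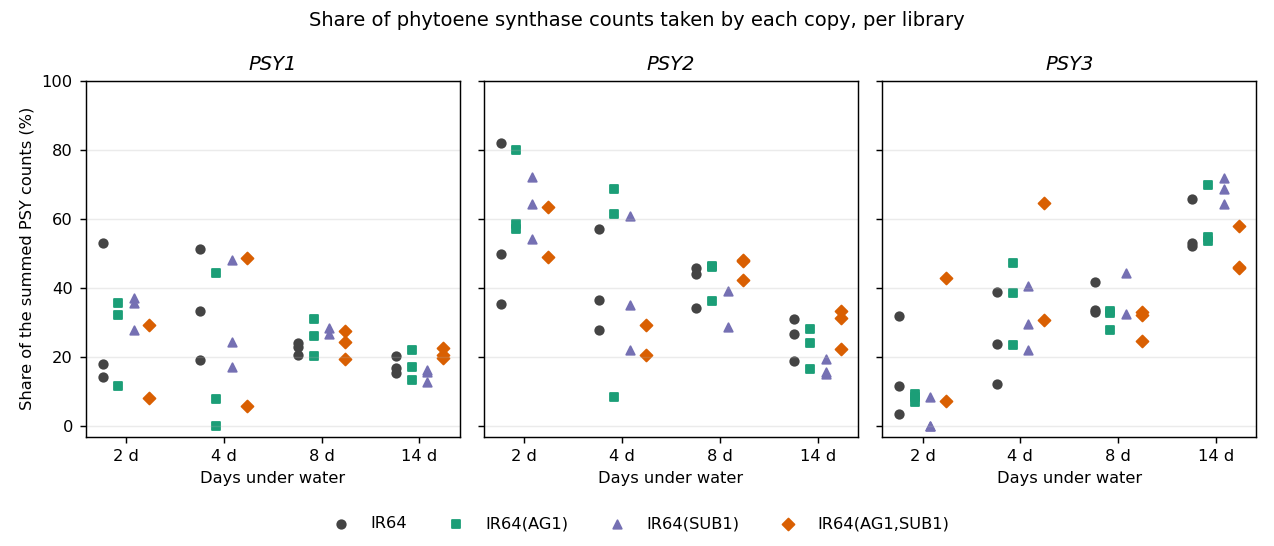
Share of PSY1, PSY2 and PSY3 in the summed phytoene synthase counts (%), 1 symbol per library, by days under water. The PSY3 share is at most 44.4% at 8 d and at least 45.8% at 14 d, and the early shares, which rest on 13 to 60 counts, scatter widely.

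PDS and ZDS, which introduce the double bonds between phytoene and lycopene, rose in 2 steps of similar size. PDS had 4.41 to 8.35 CPM at 2 d, 5.91 to 13.0 CPM at 4 d, 14.1 to 32.8 CPM at 8 d and 53.3 to 79.3 CPM at 14 d. It rose from 4 to 8 d and again from 8 to 14 d in every genotype, by 1.34 (SE 0.11, adjusted p = 1.43e-13) and 1.46 (SE 0.10, adjusted p = 1.85e-15) on average. The 4 to 8 d call was lost in IR64 without the 4 d replicate 1, at 0.99, and in IR64(AG1,SUB1) without the 4 d replicate 1, at 0.76. The 8 to 14 d call was lost in IR64(SUB1) without the 14 d replicate 3, at 0.94. From 2 to 4 d PDS was called in IR64(AG1,SUB1) without the 2 d replicate 2 (1.27) or the 4 d replicate 1 (1.097). ZDS had 11.9 to 17.1 CPM at 2 d, 14.3 to 22.6 CPM at 4 d, 20.8 to 44.4 CPM at 8 d and 78.2 to 94.6 CPM at 14 d. It rose from 4 to 8 d in IR64(AG1) and IR64(SUB1) and from 8 to 14 d in all genotypes but IR64(SUB1), and its averaged rises were 1.03 (SE 0.07, adjusted p = 2.04e-16) and 1.21 (SE 0.06, adjusted p = 5.49e-19). The 4 to 8 d change of ZDS was 0.81 in IR64 and 0.99 in IR64(AG1,SUB1). It was called in IR64 without the 8 d replicate 1 (1.02), with replicates 2 and 3 alone at 8 d (1.02) and with 5 counts added and a likelihood ratio test (1.005). In IR64(AG1,SUB1) it was called without the 4 d replicate 2 (1.17) or the 8 d replicate 2 (1.07), with RLE size factors (1.06), DESeq2 (1.06) or only the 2 groups in the fit (1.01), and with the added counts (1.09). Adding 5 counts moved the 4 to 8 d change of the median gene up by 0.20 in IR64 and 0.12 in IR64(AG1,SUB1), so these calls of ZDS are no larger relative to all genes. The 14 d libraries of ZDS were the most uniform of the 4 days in relative terms, all 12 lying within 78.2 to 94.6 CPM.

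CRTISO, the isomerase that brings the desaturated intermediates to all-trans lycopene, moved least. It had 10.3 to 14.1 CPM at 2 d, 10.9 to 14.9 CPM at 4 d, 12.0 to 19.3 CPM at 8 d and 26.8 to 36.6 CPM at 14 d. No genotype was called from 2 to 4 d or from 4 to 8 d, where the averaged change was 0.29 (SE 0.07, adjusted p = 2.24e-04). Between 8 and 14 d CRTISO rose in IR64 (1.18) and IR64(AG1) (1.03), and the values in IR64(SUB1) and IR64(AG1,SUB1) were 0.69 and 0.98. The call in IR64(AG1) was lost with 5 counts added and a likelihood ratio test (0.997) and with replicates 2 and 3 alone at 8 d (0.989). CRTISO was called in IR64(AG1,SUB1) with RLE size factors (1.05), with DESeq2 (1.05) and without the 8 d replicate 3 (1.118). The mean at 14 d was 2.61 times the mean at 2 d, against 5.90 times for ZDS and 10.2 times for PDS.

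LCYB and LCYE, the enzymes of the branch point, differed in when they were first counted. LCYB had 7.23 to 11.9 CPM at 2 d, 10.7 to 16.2 CPM at 4 d, 17.3 to 31.6 CPM at 8 d and 54.3 to 74.2 CPM at 14 d. In IR64(AG1,SUB1) it had 7.54 and 7.30 CPM at 2 d and 16.2 and 14.5 CPM at 4 d, which did not overlap, and it rose by 1.04 (SE 0.18, adjusted p = 4.01e-05). Without the 4 d replicate 1 that change was 0.96, below the fold threshold. The difference between this early change and that in IR64 was 0.81 (adjusted p = 0.0732), so it was not shown to be larger than in IR64. From 4 to 8 d LCYB rose in IR64(AG1) (1.144) and IR64(SUB1) (1.32) and was at 0.67 in IR64 and 0.40 in IR64(AG1,SUB1). From 8 to 14 d it rose in IR64 (1.70), IR64(AG1) (1.23) and IR64(AG1,SUB1) (1.496), while IR64(SUB1), at 0.996, lay just under the threshold. It was called in IR64(SUB1) with RLE size factors (1.04), with DESeq2 (1.04), and without the 8 d replicate 2 (1.142) or the 14 d replicate 2 (1.02).

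LCYE had no count in 21 of the 22 libraries of 2 d and 4 d, and the exception was 1 count in IR64(SUB1) at 2 d. At 8 d it had 4.30, 9.26 and 5.24 CPM in IR64 (93, 210 and 128 counts), 10.8, 16.1 and 9.59 CPM in IR64(AG1) (247, 389 and 248 counts), 10.9 and 10.6 CPM in IR64(SUB1) (259 and 309 counts) and 10.2, 6.48 and 6.97 CPM in IR64(AG1,SUB1) (202, 151 and 161 counts). Every 8 d library thus held a level that the depth at 4 d would have shown, since the limit that a count of 0 allows, 3 counts per library, was at most 0.267 CPM. The mean at 8 d was at least 25.4-fold higher than at 4 d in IR64, at least 57.9-fold in IR64(AG1), at least 40.4-fold in IR64(SUB1) and at least 29.5-fold in IR64(AG1,SUB1), taking the highest limit of the 4 d libraries of each genotype. At 14 d the libraries of all genotypes overlapped, with 24.8, 21.6 and 29.3 CPM in IR64, 27.5, 20.0 and 26.7 CPM in IR64(AG1), 21.7, 21.2 and 24.7 CPM in IR64(SUB1) and 28.9, 24.8 and 24.0 CPM in IR64(AG1,SUB1). LCYE rose from 8 to 14 d in all 4, from 1.02 in IR64(AG1) to 2.01 in IR64. The call in IR64(AG1) was lost without 4 of its 6 libraries in turn, at 0.88 to 0.96, and in 3 other settings, at 0.93 to 0.996, and that in IR64(SUB1) without the 14 d replicate 3, at 0.995.

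The ratio of LCYE to LCYB counts, which depends on the transcript lengths only through a constant, was 0.213 to 0.614 at 8 d and 0.322 to 0.514 at 14 d. The ranges overlapped, and the means were 0.382 ± 0.102 (SD, n = 11) and 0.407 ± 0.053 (SD, n = 12). In IR64 at 8 d the ratio was 0.315 ± 0.108 (SD, n = 3), and in IR64(AG1) it was 0.450 ± 0.155 (SD, n = 3).

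ZEP, the zeaxanthin epoxidase gene, had a flat start and then rose to a mean at 14 d of 11.1 times the mean at 2 d. It had 6.53 to 10.03 CPM at 2 d and 6.77 to 12.0 CPM at 4 d, and no genotype was called between these days. At 8 d it had 15.4, 28.8 and 18.9 CPM in IR64, 28.4, 44.2 and 44.3 CPM in IR64(AG1), 44.6 and 35.1 CPM in IR64(SUB1) and 37.4, 23.8 and 29.3 CPM in IR64(AG1,SUB1). ZEP rose from 4 to 8 d in all 4 genotypes, by 1.87 on average (SE 0.14, adjusted p = 1.63e-14), and the groups did not overlap in any of them. The averaged rise from 8 to 14 d was 1.46 (SE 0.13, adjusted p = 1.18e-12), with calls in IR64 (2.05), IR64(AG1) (1.43) and IR64(AG1,SUB1) (1.44) and a value of 0.91 in IR64(SUB1), which was called without the 8 d replicate 2 (1.09) or the 14 d replicate 3 (1.119). At 14 d the libraries spread from 51.4 to 132 CPM.

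The counts of called genes by genotype followed the same order of days. From 2 to 4 d none of the 9 genes was called in IR64 or IR64(AG1), where 10.1% and 8.32% of all genes were. Only PSY3 was called in IR64(SUB1), near the share of 12.0% of all genes, and PSY2 and LCYB were called in IR64(AG1,SUB1), against 11.7%. In the 2 genotypes without a call, 0 and 4 of the 9 genes had an unadjusted p below 0.05, and DESeq2 called 0 and 1. From 4 to 8 d 6, 8, 8 and 6 of the 9 genes rose in the order of genotypes, against 22.6%, 24.8%, 23.9% and 21.7% of all genes. The median log2 change of the 9 genes was 1.34, 2.12, 2.35 and 1.66 in these genotypes, against 0.09, 0.07, 0.05 and 0.09 for all genes. Over the last step, 8, 7, 3 and 7 of them rose, against 17.0%, 13.1%, 10.1% and 13.3% of all genes. None of the 9 genes fell after 4 d in any genotype. Of all genes tested, 7.80%, 10.7%, 11.1% and 8.10% fell from 4 to 8 d and 10.9%, 8.98%, 8.03% and 7.65% from 8 to 14 d.

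**Figure D3:**
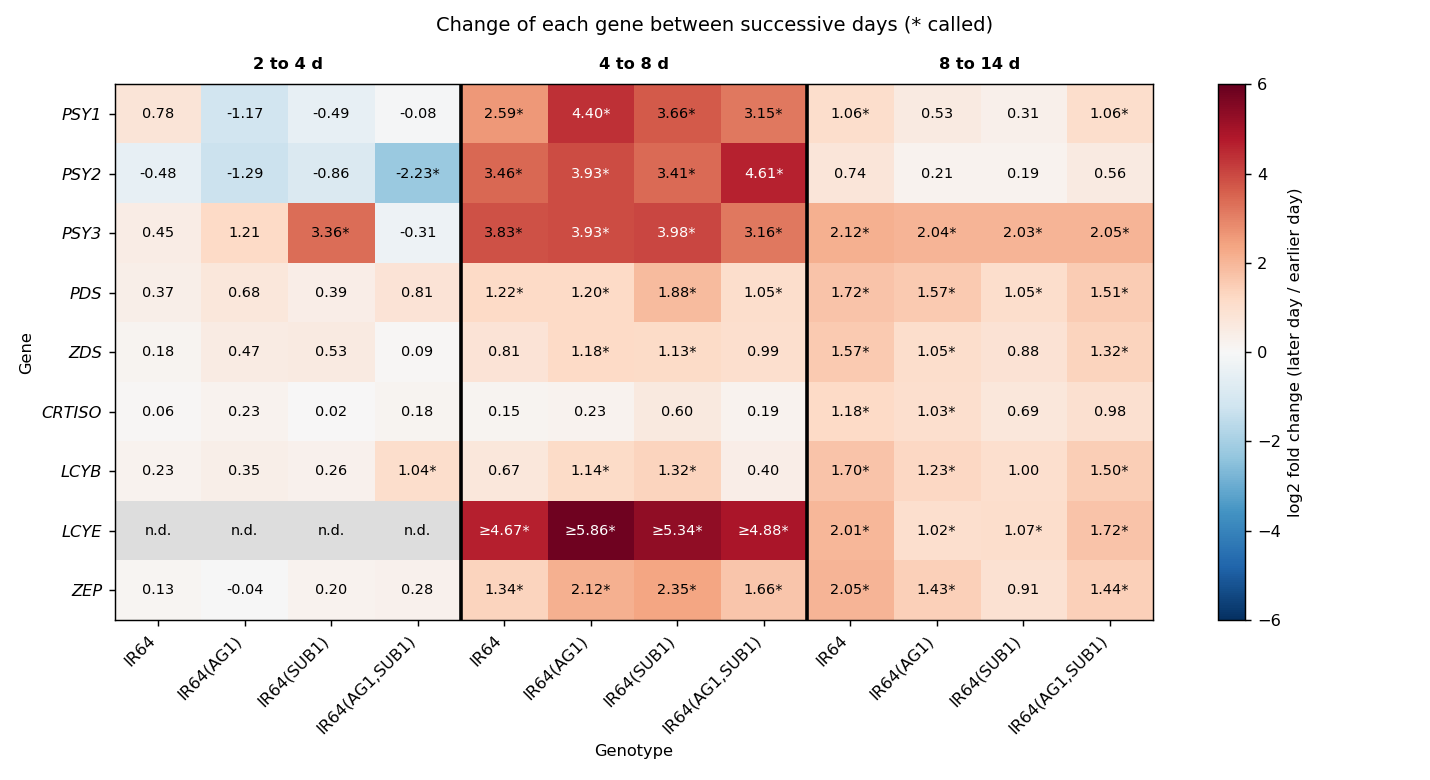
Log2 fold change of each gene between successive days in each genotype, red for higher and blue for lower on the later day, with an asterisk for a call. LCYE is grey from 2 to 4 d, where it was not counted, and from 4 to 8 d it is drawn at its lower limit (4.67 to 5.86); the 4 to 8 d block holds 28 calls of 36 and the 8 to 14 d block 25 of 36.

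The smaller number of late calls in IR64(SUB1) was not shown to be a difference between genotypes. The change of each gene over each step in a line was set against that in IR64 in 81 tests, and none was called by edgeR or by DESeq2, against 0.307% over the same tests of all genes, while 20 had an unadjusted p below 0.05. Between 8 and 14 d all 9 genes changed less in IR64(SUB1) than in IR64, with a median difference of -0.69 against -0.03 for all genes, and 6 of them had an unadjusted p below 0.05. The smallest adjusted p-values were 0.0646 for ZDS (-0.69) and 0.0730 for LCYB (-0.70). IR64(AG1) differed from IR64 by a median of -0.51 over the same step. Both lines share the IR64 libraries, and 1 of these carried weight: without IR64 8 d replicate 2 the differences in LCYE were -1.38 in IR64(AG1) (adjusted p = 0.0338) and -1.34 in IR64(SUB1) (adjusted p = 0.0302), and that in ZEP was -1.43 in IR64(SUB1) (adjusted p = 0.0243).

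Day took most of the variance of each gene. In a model of log2 CPM on day, genotype and their combination, day accounted for 88.4% (PSY1) to 99.3% (LCYE) of the sum of squares, against a median of 75.7% over all genes tested. Genotype accounted for 0.08% to 2.09% and the combination for 0.26% to 2.89%, with medians over all genes of 2.23% and 5.70%.

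In the median of the 9 genes, genotypes on the same day differed by less than days did in the steps after 4 d. The median changes from 2 to 4 d, 0.09 to 0.23, were below the 8 d differences of IR64(AG1) (0.55) and IR64(SUB1) (0.62) from IR64. Of 216 comparisons of a gene between genotypes on a day, 1 was called, 11 had an adjusted p below 0.05 and 32 an unadjusted p below 0.05. The call was PSY3 at 2 d, 3.75 higher in IR64(AG1,SUB1) than in IR64(SUB1) (SE 1.08, adjusted p = 0.0226), where 3.45% of all genes were called. It rests on 24 counts in 2 libraries, 21 of them in 1, against 3 counts in 3 libraries, a ratio of 14.9 with an exact 95% interval of 4.53 to 77.3 for counting error. Without IR64(AG1,SUB1) 2 d replicate 3 the adjusted p was 0.615, and without IR64(SUB1) 2 d replicate 1 or 2 it was 0.119 or 0.0645. With only the 2 groups in the fit it was 0.138.

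Most of the other differences lay at 8 d, where both single-locus lines were above IR64 in all 9 genes. None was called, against 2.52% of all genes in IR64(AG1) and 3.53% in IR64(SUB1), and DESeq2 called none either. Each fell short of a log2 difference of 1, and only 4 genes in IR64(AG1) and 5 in IR64(SUB1) had an adjusted p below 0.05. The median difference from IR64 was 0.55 in IR64(AG1), with a range of 0.25 to 0.96, and 0.62 in IR64(SUB1), with a range of 0.12 to 0.92, while the median over all genes was 0.00 in both. In IR64(AG1) 5 genes had an unadjusted p below 0.05 and the libraries of 6 were all above those of IR64, where 9.21% of all genes were. In IR64(SUB1) these numbers were 6 and 8, where 19.7% were. IR64(SUB1) had no replicate 1 at 8 d, and with replicates 2 and 3 alone at 8 d none of the 9 genes was called in it against IR64 either. In IR64(AG1,SUB1), by contrast, the median was 0.16, 8 genes were higher and 1 lower, no gene was free of overlap with IR64, where 4.97% were, and 1 had an unadjusted p below 0.05. None of the 9 was called there by either tool, against 0.905% of all genes.

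ZDS and LCYB had the lowest adjusted p-values of the 9 genes in both single-locus lines. ZDS had 20.8, 32.3 and 33.1 CPM in IR64, 42.4, 42.8 and 40.8 CPM in IR64(AG1), 43.8 and 44.4 CPM in IR64(SUB1) and 35.7, 28.3 and 32.8 CPM in IR64(AG1,SUB1). Both single-locus lines lay above all libraries of IR64 and of IR64(AG1,SUB1), and the difference from IR64 was 0.55 (SE 0.12, adjusted p = 5.46e-03) in IR64(AG1) and 0.62 (SE 0.14, adjusted p = 3.19e-03) in IR64(SUB1). LCYB had 20.2, 21.6 and 17.3 CPM in IR64, 25.1, 26.2 and 31.5 CPM in IR64(AG1), 31.6 and 26.0 CPM in IR64(SUB1) and 23.5, 17.6 and 19.6 CPM in IR64(AG1,SUB1). The same order held, with 0.49 (SE 0.13, adjusted p = 0.0184) and 0.55 (SE 0.14, adjusted p = 0.0129). The remaining adjusted p-values below 0.05 were 0.0219 for LCYE (0.96) and 0.0248 for ZEP (0.89) in IR64(AG1), and 0.0282 for ZEP (0.92), 0.0243 for CRTISO (0.48) and 0.0349 for PDS (0.70) in IR64(SUB1).

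PSY1 had 5.46, 5.07 and 4.54 CPM in IR64, 7.32, 10.2 and 7.46 CPM in IR64(AG1), 9.03 and 7.44 CPM in IR64(SUB1) and 4.03, 6.52 and 5.85 CPM in IR64(AG1,SUB1). Its libraries in both single-locus lines were above all others, but neither difference from IR64 passed the test. PDS had 14.1, 22.8 and 21.9 CPM, 19.5, 24.4 and 26.1 CPM, 31.1 and 32.8 CPM, and 23.2, 20.3 and 22.7 CPM in the same order. Only IR64(SUB1) stood apart, above the libraries of every other genotype.

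**Figure D4:**
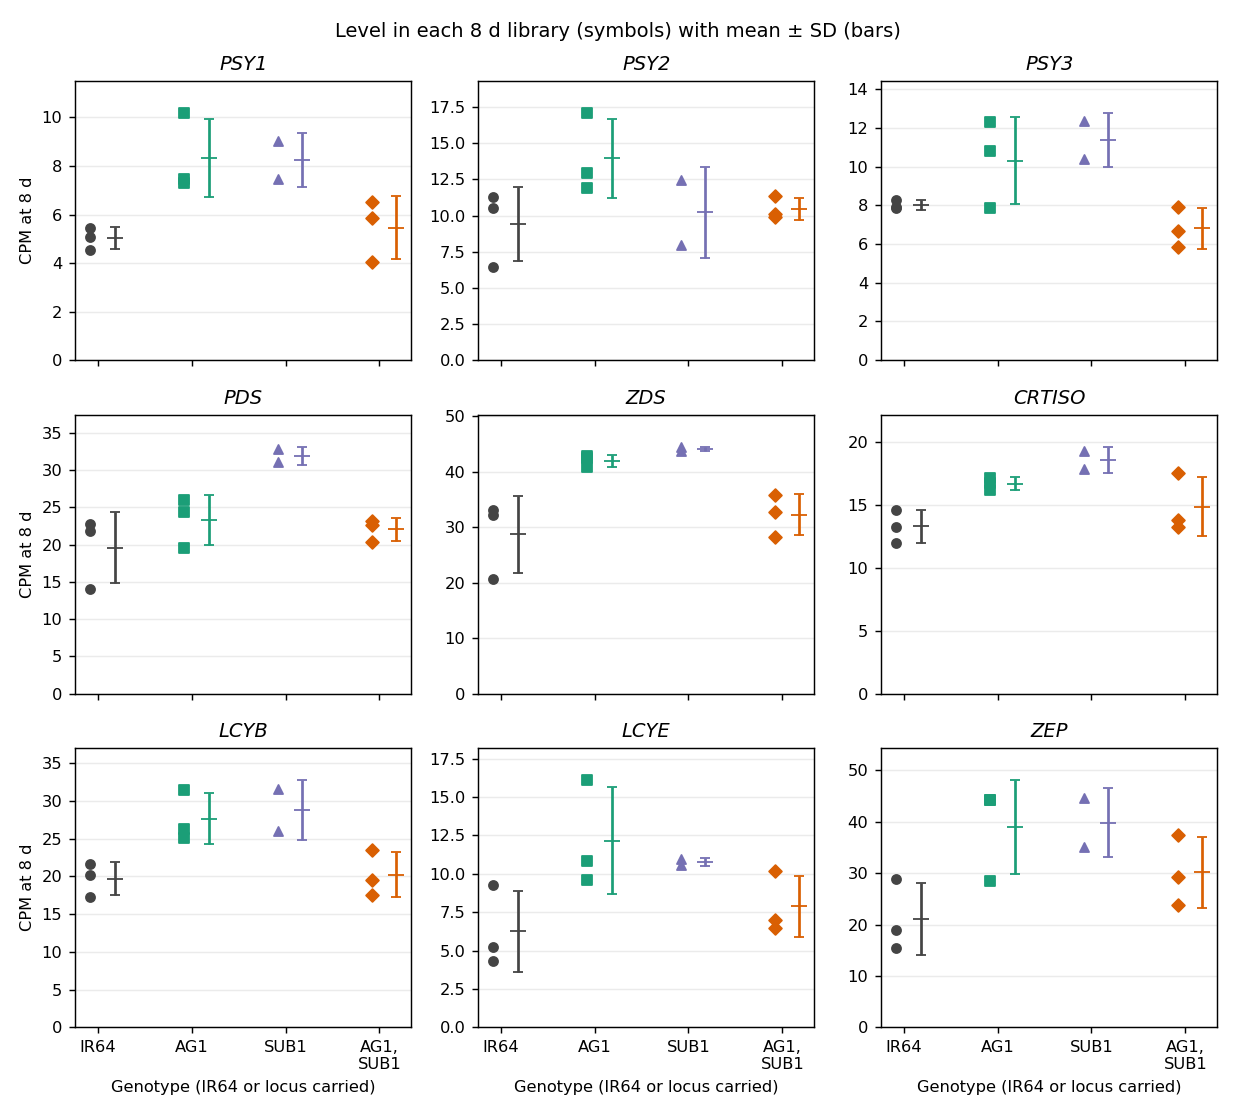
Level of the 9 genes at 8 d (CPM, linear axis from 0) in each library, with the mean and SD of each genotype beside the symbols (n = 3, and n = 2 in IR64(SUB1)). For ZDS and PSY1 the libraries of IR64(AG1) and IR64(SUB1) lie above those of IR64 and IR64(AG1,SUB1).

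Single libraries of IR64 stood out in these comparisons. IR64 8 d replicate 1 was the lowest of its group in ZDS (20.8 CPM against 32.3 and 33.1) and PDS (14.1 CPM against 22.8 and 21.9). At 8 d the libraries numbered 1 had 24966 to 25523 genes with a count, and the others 26222 to 27421. In LCYE and ZEP it was another library of IR64. IR64 8 d replicate 2 had the highest LCYE (9.26 CPM) and ZEP (28.8 CPM) of its group and a green marker sum of 7053 CPM, against 3466 and 3264 CPM in the other IR64 libraries of that day. Without it LCYE was called against IR64 in IR64(AG1) (1.35, adjusted p = 1.41e-03) and IR64(SUB1) (1.17, adjusted p = 5.91e-03), and ZEP was called in IR64(AG1) (1.19, adjusted p = 4.57e-03) and IR64(SUB1) (1.22, adjusted p = 5.11e-03). In IR64(AG1) calls were gained also without 1 of its own libraries, for LCYE without replicate 1 (1.03, adjusted p = 0.0162) or replicate 3 (1.10, adjusted p = 0.0356) and for ZEP without replicate 1 (1.07, adjusted p = 6.15e-03). The green marker sum at 8 d was 6962 to 12399 CPM in IR64(AG1), 7742 to 10511 CPM in IR64(SUB1) and 6795 to 8023 CPM in IR64(AG1,SUB1). Of the 20 green markers IR64(AG1) had 16 called higher than in IR64, IR64(SUB1) had 5 and IR64(AG1,SUB1) had 1. Of all genes 1.57%, 1.65% and 0.455% were called higher in these comparisons. Only 5 of the 20 markers are described in the study's datasets. The part of green tissue in the differences of the carotenoid genes was not tested.

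Each genotype was 1 line, and the study states that some differences between genotypes may come from other chromosomal variation between them. Effects of the loci and of such variation cannot be told apart here. In the fitted values of the 9 genes at 8 d, the difference of IR64(AG1,SUB1) from IR64 was below the sum of the differences of the single-locus lines from IR64 on the log2 scale. This interaction is the difference between IR64(AG1,SUB1) and IR64(SUB1) minus the difference between IR64(AG1) and IR64. It was negative for all 9 genes, with a median of -0.998, a range of -1.41 to -0.54 and a median over all genes of -0.02. These 9 values come from the same 11 libraries, so they are not independent of each other. LCYE (-1.41, SE 0.37, adjusted p = 0.0123) and ZEP (-1.29, SE 0.37, adjusted p = 0.0155) were called, where 3.76% of all genes were called in that direction and 7.27% in either. ZDS (-0.998, SE 0.18, adjusted p = 3.00e-04), LCYB (-0.998, SE 0.19, adjusted p = 5.46e-04) and CRTISO (-0.65, SE 0.19, adjusted p = 0.0176) passed the test but not the fold threshold. ZDS was called when 1 of 6 of the 11 libraries was left out, at -1.113 to -1.008 (IR64 replicates 2 and 3, IR64(AG1) replicate 3, IR64(SUB1) replicate 2, and IR64(AG1,SUB1) replicates 1 and 3). LCYB was called without 1 of 5, at -1.132 to -1.034 (IR64 replicate 2, IR64(AG1) replicates 1 and 2, IR64(SUB1) replicate 3, and IR64(AG1,SUB1) replicate 1). PSY1 (-1.31, adjusted p = 0.104), PSY3 (-1.11, adjusted p = 0.136), PDS (-0.78, adjusted p = 0.0718) and PSY2 (-0.54, adjusted p = 0.575) did not pass. With DESeq2 ZDS (-1.06), LCYB (-1.06) and PSY1 (-1.39, adjusted p = 0.0320) were also called, as they were with 5 counts added and a likelihood ratio test (-1.03, -1.02 and -1.29). RLE size factors gave calls for ZDS and LCYB (-1.06 each) but not for PSY1.

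The interaction of LCYE stayed called without each of its 11 libraries in turn, from -1.80 to -1.16, and that of ZEP was lost without IR64 8 d replicate 1 (adjusted p = 0.0680), IR64(AG1,SUB1) 8 d replicate 2 (adjusted p = 0.0550) or IR64(SUB1) 8 d replicate 2 (adjusted p = 0.0940). When only the 8 d groups entered the fit, neither was called, with adjusted p = 0.0791 for LCYE and 0.0569 for ZEP, while PSY1 was, with -1.31 (adjusted p = 0.0488). Of the green markers 13 of 20 were called with a negative interaction at 8 d, against 3.76% of all genes, with a median of -1.505. None of the 5 endosperm markers was, with a median of 0.11. No carotenoid gene was called in the interaction at 2 d (2.45% of all genes), 4 d (0.642%) or 14 d (1.83%), and on each of these days 1 of the 9 had an unadjusted p below 0.05. DESeq2 called PSY3 at 2 d (4.34, adjusted p = 0.0120) and none at 4 d or 14 d, and in edgeR PSY3 was called at 2 d without IR64(SUB1) 2 d replicate 3 (adjusted p = 0.0445) or IR64(AG1,SUB1) 2 d replicate 2 (adjusted p = 0.0361). The first of these leaves IR64(SUB1) with no count of PSY3 and the second leaves IR64(AG1,SUB1) with 1 library, which is assumed to vary like the other groups.

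**Figure D5:**
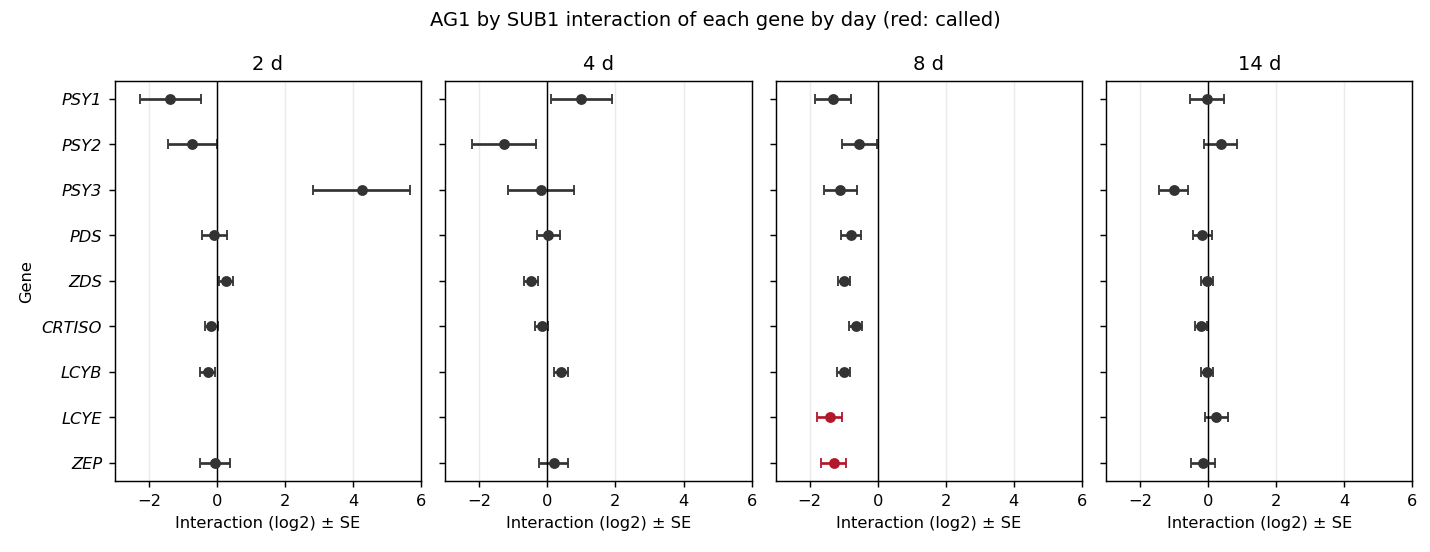
AG1 by SUB1 interaction of each gene (log2 scale, bars are 1 SE) on each day, red where called; LCYE is left out at 2 d and 4 d, where it was not counted. At 8 d all 9 genes lie below 0, from -1.41 for LCYE to -0.54 for PSY2.

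Set directly against the single-locus lines at 8 d, IR64(AG1,SUB1) was lower than IR64(AG1) in all 9 genes, with a median of -0.42, and the libraries of 4 genes did not overlap, where 8.52% of all genes were lower without overlap. It was lower than IR64(SUB1) in 8 of 9, with a median of -0.45, and 7 genes did not overlap, where 17.6% of all genes did not. None was called in either comparison by edgeR or DESeq2, against 1.31% and 1.47% of all genes, and 3 and 5 genes had an unadjusted p below 0.05. LCYB passed the test against IR64(SUB1) (-0.51, SE 0.14, adjusted p = 0.0394). The 2 single-locus lines differed from each other by -0.45 to 0.45, with no call by either tool, 1 unadjusted p below 0.05 and 0.596% of all genes called.

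At 14 d the 9 genes lay close to IR64 in every line. The median difference of the 9 genes from IR64 was 0.10 for IR64(AG1), -0.07 for IR64(SUB1) and -0.03 for IR64(AG1,SUB1), and no gene had an unadjusted p below 0.05. None was called by edgeR or DESeq2, against 0.336%, 0.699% and 1.76% of all genes. Against IR64(SUB1), PSY3 in IR64(AG1,SUB1) was at -0.73 (adjusted p = 0.274), and it was called as lower without IR64(AG1,SUB1) 14 d replicate 1 (-1.12, adjusted p = 0.0483). At 2 d and 4 d no line was called against IR64 by either tool in any of the 9 genes. Of all genes, 0.913% and 0.596% were called on these days in IR64(AG1), 1.54% and 0.856% in IR64(SUB1) and 4.28% and 1.08% in IR64(AG1,SUB1), and 3 of the 54 comparisons of carotenoid genes had an unadjusted p below 0.05.

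Genes of the neighbouring steps were counted by list. Of 13 genes entered for the supply of geranylgeranyl diphosphate, 4, 5, 5 and 3 rose from 2 to 4 d in the order of genotypes, against 6.21%, 5.17%, 7.87% and 7.93% of all genes. From 4 to 8 d 1, 1, 3 and 1 of the 13 rose, against 22.6%, 24.8%, 23.9% and 21.7% of all genes. In that step 0, 1, 0 and 1 fell, against 7.80%, 10.7%, 11.1% and 8.10%. The 3 rises in IR64(SUB1) and the single falls lay near these shares. Over the last step 7, 3, 2 and 7 rose, against 17.0%, 13.1%, 10.1% and 13.3%. Their median log2 change was 0.24, 0.27, 0.55 and 0.29 from 4 to 8 d, against 0.05 to 0.09 for all genes. The one of these genes that the study's annotation describes, the 1-deoxy-D-xylulose 5-phosphate reductoisomerase gene DXR (OS01G0106900), which makes the first committed intermediate of the plastid isoprenoid pathway, rose from 2 to 4 d in IR64(AG1) (1.12) and IR64(SUB1) (1.06) and was at -0.20 to 0.24 from 4 to 8 d in the 4 genotypes. Identifiers of the other 12 were entered by hand and were not checked against an annotation.

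Of 9 genes entered for other carotenoid and xanthophyll steps, 4, 3, 3 and 3 rose and 1 fell in each genotype from 4 to 8 d, and 5, 3, 2 and 4 rose and 1 fell in each from 8 to 14 d. From 2 to 4 d 1, 1, 0 and 2 rose, against 6.21%, 5.17%, 7.87% and 7.93% of all genes, and 1 fell in IR64, against 3.87%. Of all genes 21.7% to 24.8% rose and 7.80% to 11.1% fell from 4 to 8 d, and 10.1% to 17.0% rose and 7.65% to 10.9% fell from 8 to 14 d, so that 1 fall in 9 genes lay near those shares. A cytochrome P450 family gene of this list (OS02G0817900) was near 0 until 4 d, with mean levels in IR64 of 0.391, 0.341, 12.1 and 50.0 CPM at 2, 4, 8 and 14 d, and it rose by 3.55 to 5.21 from 4 to 8 d in the 4 genotypes. The violaxanthin de-epoxidase gene VDE (OS04G0379700), whose enzyme runs the xanthophyll cycle in the direction opposite to ZEP, differed from ZEP in the earlier steps. It rose from 2 to 4 d in IR64 (1.39) and IR64(AG1) (1.51), was not called from 4 to 8 d in any genotype (0.04 to 0.60), and rose from 8 to 14 d in all 4 (1.53 to 2.27), a step in which ZEP rose in 3.

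Genes entered for carotenoid cleavage numbered 10, of which 9 were tested. From 2 to 4 d 1, 1, 2 and 2 rose, against 6.21%, 5.17%, 7.87% and 7.93% of all genes, and none fell. From 4 to 8 d 3, 5, 4 and 2 rose, against 22.6%, 24.8%, 23.9% and 21.7%, and 1, 1, 2 and 1 fell, against 7.80%, 10.7%, 11.1% and 8.10%. Over the last step 6, 4, 4 and 4 rose, against 17.0%, 13.1%, 10.1% and 13.3%, and 0, 1, 0 and 1 fell, against 10.9%, 8.98%, 8.03% and 7.65%. The 2 rises of 9 from 4 to 8 d in IR64(AG1,SUB1) and the single rises and falls lay near these shares. A carotenoid oxygenase family gene (OS04G0550600) fell over the step in which most of the synthesis genes rose. Its mean level in IR64 was 0.488 CPM at 2 d, 10.3 CPM at 4 d, 3.63 CPM at 8 d and 6.93 CPM at 14 d. It rose from 2 to 4 d in all 4 genotypes, by 2.64 to 4.40, and fell from 4 to 8 d in all 4, by -1.59 to -1.24. Another carotenoid oxygenase family gene (OS03G0645900) was at 0.161 CPM or less in every group before 8 d and at means of 2.28, 2.21, 4.55 and 1.21 CPM at 14 d. The descriptions of these genes come from the study's own lists of changed genes, so their direction is not independent evidence.

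Over the 16 group means of log2 CPM the 9 genes followed each other closely, with Pearson's r from 0.750 (PSY2 and CRTISO) to 0.991 (PDS and ZDS). These points share libraries, and day took most of their variance. Among 3237 tested genes with a description, the pair most like each gene was as follows, with r over the group means. PSY1 had an ABC transporter gene (OS05G0120200, r = 0.987) and the phosphoribulokinase gene of the Calvin cycle (OS02G0698000, r = 0.985). PSY2 had a gene like Pto kinase interactor 1 (OS01G0223600, r = 0.981) and another ABC transporter gene (OS01G0121700, r = 0.980). PSY3 had an alpha/beta hydrolase gene (OS03G0258200, r = 0.993) and a gene of the S-locus receptor kinase class (OS01G0127700, r = 0.992). For PDS these were a serine-glyoxylate aminotransferase gene of photorespiration (OS08G0502700, r = 0.991) and a chlorophyll b reductase gene (OS01G0227100, r = 0.991), and for ZDS a gene of unknown function (OS04G0596300, r = 0.994) and an ankyrin-kinase gene (OS01G0892800, r = 0.991). CRTISO had a gene like a stress-responsive protein (OS01G0516200, r = 0.9899) and one without an assigned function (OS04G0401100, r = 0.989). For LCYB a SecA translocase gene (OS01G0321300, r = 0.994) and a gene of the multifunctional protein of fatty acid beta-oxidation (OS01G0348600, r = 0.993) came first, and for LCYE a xyloglucan endotransglucosylase/hydrolase gene (OS03G0108300, r = 0.999) and a gene of unknown function (OS01G0110200, r = 0.999). ZEP had an ALBINO3 inner membrane protein gene (OS01G0151200, r = 0.996), whose product inserts light-harvesting proteins into thylakoids, and a thylakoid ascorbate peroxidase gene (OS02G0553200, r = 0.995).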

How the data were processed

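The authors aligned trimmed paired-end reads of strand-specific poly(A)+ libraries against the Nipponbare (japonica) reference, to which SUB1A-1 had been added, with Bowtie2 2.2.5 and TopHat2 2.0.14, and deposited raw counts per gene over exons in union mode. Indica reads were thus counted on a japonica reference, which can lower the counts of divergent genes. These counts were analysed with edgeR 4.0.16 in R 4.3.3: filterByExpr over 16 groups (26180 of 35677 genes kept), TMM scaling, 1 coefficient per genotype and day over all 45 libraries, quasi-likelihood F tests, and Benjamini-Hochberg adjustment over all genes tested in each comparison, with the study's thresholds. SE is the log2 fold change divided by the root of F. Log2 CPM used a prior count of 2. The fit was tried on simulated counts in which only well-counted genes changed, so the trial does not bear on changes of genes with few counts or on interactions. Replicate numbers, which the labels tie to no shared batch, paired IR64(AG1) with IR64 at 8 d and 14 d by the correlation of same-numbered libraries (0.129 to 0.257 and 0.169 to 0.231, against at most 0.0841 and -0.037 for different numbers), and the replicate block changed no call in these 2 comparisons. Alternatives were RLE size factors, no filter, the study's steps (5 counts added, likelihood ratio test), DESeq2 1.42.0, a replicate block, replicates 2 and 3 alone at 8 d, only the groups compared, and each library left out.

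The 9 genes and the lists were chosen with earlier results of these data known. Beyond the 9 genes, only genes that the study's datasets describe are named (1 of 13 for precursor supply, 2 of 9 for other steps, 2 of 10 for cleavage, and for neighbours in pattern the most alike). Of the green, endosperm and embryo markers 5 of 20, 1 of 5 and 0 of 8 are described there, and of the 9 genes 1, so the other 8 names were taken as given. Embryo markers summed to 23.6 to 66.8 CPM at 2 d and 0.153 to 1.05 CPM at 14 d. Gene positions, sequences and TPP7 were not analysed here.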

Additional observations from a re-analysis of the deposited data

Results flagged for a closer look

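The difference of IR64(AG1) from IR64 and that of IR64(AG1,SUB1) from IR64(SUB1) at 8 d were tested against each other and differed in LCYE, with an interaction of -1.41 (SE 0.37, adjusted p = 0.0123 in edgeR), and in ZEP, with -1.29 (SE 0.37, adjusted p = 0.0155). In LCYE the difference was 0.96 without SUB1A-1 in the background and -0.45 with it. In ZEP the corresponding differences were 0.89 and -0.40. With only the 8 d groups in the fit neither interaction was called (adjusted p = 0.0791 for LCYE and 0.0569 for ZEP), and that of ZEP was lost without IR64 8 d replicate 1, IR64(AG1,SUB1) 8 d replicate 2 or IR64(SUB1) 8 d replicate 2 (adjusted p = 0.0680, 0.0550 and 0.0940).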

How the results depend on the processing

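No called direction reversed. With all libraries in the fit, sums of called genes moved by more than 1.5 times in 2 families of comparisons. For IR64(AG1,SUB1) against IR64(SUB1) 1 call became 0 with only the groups compared. For the interaction 2 calls became 4 with RLE size factors, 4 without a filter, 5 with the study's steps, 6 with DESeq2 and 1 with only the groups compared. ZDS and LCYB, at -0.998 each, account for the gains with RLE size factors and without a filter. With libraries left out in turn, the sums over genotypes ranged from 2 to 4 (2 to 4 d), 27 to 29 (4 to 8 d) and 24 to 27 (8 to 14 d), and the sums over days from 0 to 2 for IR64(AG1) and for IR64(SUB1) against IR64, 0 to 2 for IR64(AG1,SUB1) against IR64(SUB1), 1 to 4 for the interaction and 0 to 0 for the other 3 pairs of genotypes. The sums for IR64(AG1) and IR64(SUB1) against IR64 thus moved as well. A group left with 1 library was assumed to vary like the others. IR64 8 d replicate 2 changed most, with 9 calls gained and 0 lost. RLE size factors shifted single values by -0.07 to 0.12. The study's steps shifted the 4 to 8 d change of all genes by a median of 0.11 to 0.20, depending on genotype. Of the single values under all alternatives, 5887 kept their call or lack of one, 63 gained a call and 35 lost one.

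Same-numbered libraries correlated by -0.10 to 0.27 between genotypes and by -0.05 to 0.07 between days. Every pair exceeded 0.1 in 2 of 24 comparisons between genotypes, both of IR64(AG1) with IR64, and in 0 of 12 between days. With the replicate block 2 calls were gained, PSY2 from 2 to 4 d in IR64(AG1) (-1.33, adjusted p = 0.0221) and LCYB in the interaction at 8 d (-1.003, adjusted p = 7.63e-04), and none was lost. The sums under the replicate block were 4, 28 and 25 for the days, 1 for IR64(AG1,SUB1) against IR64(SUB1), 3 for the interaction and 0 for the other pairs.

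At 2 d and 4 d LCYE and the phytoene synthase genes had low counts or none, and groups with 2 libraries weigh on their calls.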

Other observations

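At 14 d the libraries numbered 3 were at the same end of their group in all 4 genotypes for several genes. PSY3 (23.6, 27.1, 36.6 and 19.7 CPM in the order of genotypes used above) and ZEP (56.3, 79.6, 51.4 and 55.7 CPM) were lowest in number 3 in 4 of 4 genotypes, as was the green marker sum. LCYB (70.4, 74.2, 58.6 and 60.5 CPM) was highest in number 3 in 4 of 4, and PDS was highest in 3 of 4. The pattern was noticed after the values were seen, the labels do not say that a number marks a shared batch, and its source was not tested.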
